A study of Homo sapiens with 8 samples.

Results

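Gene expression in U87MG cells, an established glioblastoma line, was compared between a late and an early time of exposure to enzalutamide. Enzalutamide is an antiandrogen drug given against prostate cancer. The late group held 2 libraries taken 48 h after treatment and the early group 2 libraries taken 4 h after treatment, which together are 4 of the 8 libraries in the series. The other libraries, 2 of untreated cells and 2 taken 24 h after treatment, were not part of the contrast, and served to estimate the spread and as a level against which to read each gene. All groups were the same cell line in the same medium with serum. The labels give no dose, no vehicle and no harvest time for the untreated cells, and whether the replicates were separate cultures is not stated, so the p-values reflect a spread between libraries that may be technical. The extraction protocol mentions differentiation, which no other protocol describes. Time in culture and time with the drug therefore cannot be told apart in a comparison of 48 h with 4 h.

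Cells under stress turn on separate programmes, each with its own sensor. Metal ions free the transcription factor MTF1 to act on metallothionein genes, unfolded protein in the cytosol frees HSF1 to act on heat shock genes, and oxidants free NRF2 to act on antioxidant genes. Unfolded protein in the endoplasmic reticulum (ER) activates the sensors IRE1, PERK and ATF6. PERK and its sister kinases phosphorylate the initiation factor eIF2-alpha, which slows translation in general while translation of the transcription factor ATF4 increases. The ATF4 branch then raises genes for amino acid supply, and under lasting stress the factor CHOP, encoded by DDIT3.

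The 4 libraries held 24620833 and 32767660 counts at 4 h and 33793387 and 32348619 at 48 h. The 48 h libraries stood apart from the other 6 in their makeup. They had 16913 and 17009 genes with a count, against 17610 and 17986 at 4 h, and their TMM scaling factors were 0.870 and 0.899 against 1.02 and 1.04. Their 10 most abundant genes took 7.11% and 6.71% of counts, against 5.78% and 5.59% at 4 h. Levels below are CPM, a gene's share of all counts scaled to a common total after TMM scaling, and changes are log2 values of 48 h minus 4 h with their standard error (SE). The part of this difference in makeup in the results that follow was not tested beyond the other scalings given here.

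Most measured genes differed between the early and the late time. Of 14448 genes with enough counts, 4984 were higher at 48 h (34.5%) and 5051 were lower (35%), so that 69.5% passed an adjusted p under 0.05 in either direction by edgeR's quasi-likelihood test. The falls were larger than the rises, since 2578 genes were lower by at least 2-fold and 1024 were higher by at least 2-fold. At 4-fold or more the counts were 963 lower and 150 higher. The counts of called list members below are to be read against the shares of 34.5% higher and 35% lower. The split between higher and lower calls depended on the scaling. It was 49.7% higher among called genes with TMM, 35.5% with library totals alone (3486 higher, 6323 lower) and 59.7% after correction for the length and GC content of transcripts (6219 higher, 4199 lower). The median change of all tested genes was -0.02 with TMM, -0.24 with library totals and 0.15 with the length and GC correction, and the changes of genes and lists under those settings are to be read against these shifts. The change also went with the level, with a median of -0.65 in the lowest of 5 equal groups of genes by mean level and 0.34 in the highest.

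**Figure D1:**
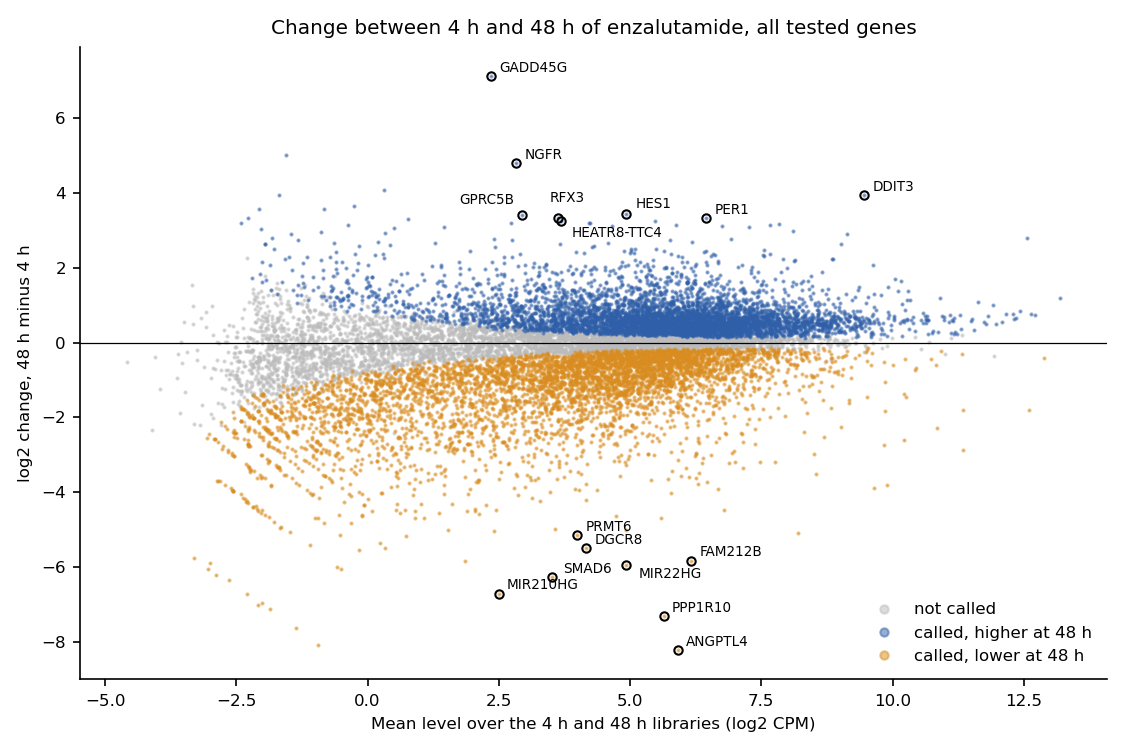
Each point is 1 of 14448 tested genes, with the mean level over the 4 h and 48 h libraries on the x axis (log2 CPM) and the log2 change from 4 h to 48 h on the y axis. Blue and orange points were called higher or lower at 48 h, and the 16 circled genes, at a mean level of log2 CPM 2 or more, had the 8 largest rises, up to 7.14, and the 8 largest falls, down to -8.23.

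Metallothioneins, small proteins that bind zinc and other metals, and the zinc exporter SLC30A1 were high at 4 h and had come down by 48 h. In MT1X the untreated libraries stood at 51.4 and 49.5 CPM, the 4 h libraries at 766 and 653 CPM, the 24 h libraries at 66.6 and 76.4 CPM, and the 48 h libraries at 140 and 106 CPM. The groups at 4 h and 48 h did not overlap, which held for 82.9% of all tested genes. Both 48 h libraries of MT1X were still above the untreated ones. MT1X was 5.77-fold lower at 48 h (log2 change -2.53, SE 0.13, adjusted p = 1.85e-08, n = 2 libraries a group, as in all that follows). SLC30A1, which carries zinc out of the cell, stood at 147 and 123 CPM at 4 h and at 14.8 and 18.4 CPM at 48 h, close to the untreated 13.7 and 13.9 CPM (log2 change -3.02, SE 0.14). MT1M (log2 change -5.01, SE 0.23) and MT1E (-2.99, SE 0.14) fell as well. Of 11 tested genes of metallothioneins and zinc handling 9 were lower and 1 higher, with a median of -2.71. The 1 higher gene, MT3, was called at a log2 change of 1.24. It is named after its value was seen, and was no longer called without 4 h replicate 2.

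MT2A did not follow the other metallothioneins. Its libraries stood at 1037 and 957 CPM in untreated cells, 1730 and 1550 CPM at 4 h, 1203 and 1232 CPM at 24 h, and 1838 and 1476 CPM at 48 h. The 4 h and 48 h groups overlapped, and the change of 0.01 (SE 0.09, adjusted p = 0.90) missed the threshold. With library totals as the scaling, MT2A was lower at 48 h by 0.20 (log2 change -0.20), and with length and GC content corrected by 0.19 (-0.19). Whether MT2A fell thus depended on the scaling. Metallothionein genes are near-identical copies, and reads may have been assigned to the wrong member, so each of these values is uncertain.

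The promoters of this pair are shown because MT1X fell and MT2A, with TMM scaling, did not, while both carry the letters that MTF1 binds. The sequences are the 250 bases before the RefSeq start in GRCh38.p14, MT1X at chr16:56682220-56682469 and MT2A at chr16:56608334-56608583, both on the plus strand. Capitals mark the core of the metal response element, TGCNCNC, on either strand.
MT1X: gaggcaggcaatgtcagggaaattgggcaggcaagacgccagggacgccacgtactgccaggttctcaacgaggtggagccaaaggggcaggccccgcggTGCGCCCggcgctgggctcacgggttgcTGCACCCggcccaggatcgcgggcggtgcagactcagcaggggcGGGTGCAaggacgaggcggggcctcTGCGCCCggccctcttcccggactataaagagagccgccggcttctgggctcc
MT2A: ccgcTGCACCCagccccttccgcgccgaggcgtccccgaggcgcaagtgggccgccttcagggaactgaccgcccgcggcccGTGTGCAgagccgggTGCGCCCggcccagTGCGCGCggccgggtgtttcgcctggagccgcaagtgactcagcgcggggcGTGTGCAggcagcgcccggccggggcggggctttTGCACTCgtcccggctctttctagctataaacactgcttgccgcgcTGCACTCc
MT1X held 4 matches and MT2A held 7. At least 4 matches occurred in 1.70% of 27305 promoters of this length, and at least 1 in 48.4%. Among the 11048 tested genes with a promoter these shares were 2.02% and 55.8%. Of 6 listed metallothionein and zinc genes with a promoter in the table, 4 held a match (66.7%). A match is a run of letters and not a measured binding site.

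**Figure D2:**
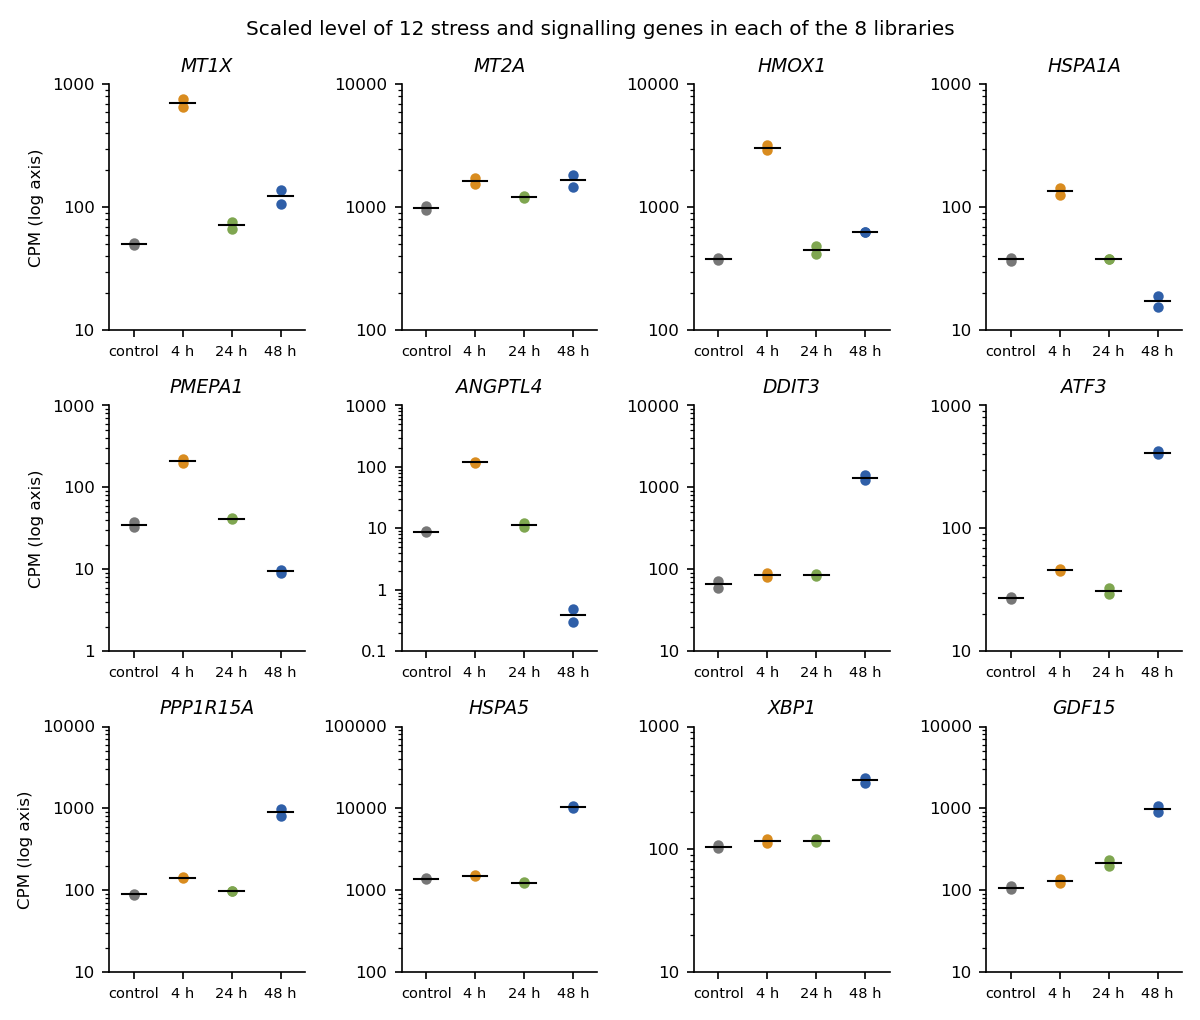
Levels (CPM, log axis) of 12 genes in each library of untreated cells and after 4, 24 and 48 h of enzalutamide, with points for libraries and a line for the mean of 2. MT1X, HMOX1 and HSPA1A peaked at 4 h, the 48 h libraries of DDIT3, ATF3, PPP1R15A, HSPA5, XBP1 and GDF15 lay above all others, and MT2A overlapped between 4 h and 48 h.

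Genes listed as cytosolic heat shock, with the mitochondrial HSPD1 and HSPE1 among them, were lower at 48 h in 14 of 23 tested cases. The list had 6 higher genes and a median of -0.31. Its largest rises, named after their values were seen, were CRYAB (0.93, SE 0.20), HSF1 (0.85, SE 0.07) and HSP90AB1 (0.62, SE 0.06). The summed level of the list overlapped, at 8274 to 8712 CPM at 4 h and 7600 to 8287 CPM at 48 h. The largest fall in the list was that of HSPA1L, an HSP70 gene named after its values were seen (log2 change -3.49, SE 0.34), which had 94 and 149 counts at 4 h and 15 and 6 counts at 48 h. HSPA1A, which encodes the inducible HSP70 chaperone, stood at 126 and 145 CPM at 4 h and 18.9 and 15.6 CPM at 48 h, with untreated libraries of 37.0 and 39.0 CPM lying between. It fell by 2.97 on the log2 scale (SE 0.10, adjusted p = 1.69e-09), as did its near-identical copy HSPA1B (log2 change -2.95, SE 0.11), and reads of the pair cannot be separated with certainty. HSPH1, an HSP110 chaperone that recharges HSP70, stood at 216 and 225 CPM at 4 h and 119 and 117 CPM at 48 h (log2 change -0.90, SE 0.07). The HSP40 co-chaperone gene DNAJA1 fell by 1.37 (SE 0.07) on the log2 scale.

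NRF2 targets were higher in 13 of 27 cases and lower in 8 (median 0.16), beside 34.5% higher and 35% lower among all tested genes. HMOX1, the haem oxygenase that breaks down haem, led the falls, from 3194 and 2914 CPM at 4 h to 627 and 635 CPM at 48 h, with the untreated libraries at 387 and 372 CPM. That is 4.84-fold lower (log2 change -2.28, SE 0.08, adjusted p = 2e-09). The peroxiredoxin gene PRDX1, whose product removes hydrogen peroxide, stood at 370 and 371 CPM at 4 h and at 148 and 142 CPM at 48 h (log2 change -1.35, SE 0.06). SQSTM1, the autophagy receptor p62, went the other way, from 1989 and 2066 CPM to 4329 and 4256 CPM (log2 change 1.08, SE 0.05). The counts of NRF2 targets depended on the scaling, with 10 higher and 10 lower and a median of -0.05 when library totals were used.

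HSPA5, XBP1 and HERPUD1, of the ER stress response, were more than 2-fold higher at 48 h than at 4 h. HSPA5 encodes BiP, the HSP70 chaperone of the ER that also holds the stress sensors inactive. Its untreated libraries stood at 1408 and 1364 CPM, its 4 h libraries at 1497 and 1538 CPM, its 24 h libraries at 1254 and 1237 CPM, and its 48 h libraries at 10789 and 10196 CPM. All 6 earlier libraries lay below both 48 h libraries, and HSPA5 was 6.91-fold higher at 48 h than at 4 h (log2 change 2.79, SE 0.06, adjusted p = 1.09e-10). XBP1, the transcription factor made active by IRE1 splicing, stood at 121 and 112 CPM at 4 h and 385 and 347 CPM at 48 h (log2 change 1.65, SE 0.07). HERPUD1, a membrane protein of ER-associated degradation, stood at 85.3 and 82.8 CPM at 4 h and 408 and 391 CPM at 48 h (log2 change 2.25, SE 0.08). These gene-level counts do not show splicing of XBP1.

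Among ER chaperones and folding enzymes 16 of 22 tested genes were higher and 4 lower (median 0.51). HSPA5 stood out within this list. It was the only member to rise by at least 2-fold, while the other chaperones called with the smallest p, HSP90B1 (GRP94) and CANX (calnexin, a lectin that holds glycoproteins), rose by 0.75 (SE 0.05) and 0.72 (SE 0.05) on the log2 scale. The summed level of the list went from between 10130 and 10459 CPM at 4 h to between 23054 and 24559 CPM at 48 h. This sum includes HSPA5, at 1497 and 1538 CPM at 4 h and 10789 and 10196 CPM at 48 h. Sensors of the unfolded protein response and factors of ER-associated degradation were higher in 14 of 24 cases and lower in 9 (median 0.28), and in 10 and 9 with library totals (median 0.06). EDEM3, a mannosidase that marks glycoproteins for degradation, stood at 56.5 and 56.3 CPM at 4 h and 5.65 and 9.62 CPM at 48 h, against the direction of HERPUD1 (log2 change -2.89, SE 0.17).

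The promoters of HSPA5 and XBP1 are shown because they hold the ER stress response element, the site of ATF6 together with NF-Y. The 250 bases before the RefSeq start in GRCh38.p14 lie at chr9:125241344-125241593 for HSPA5 and chr22:28800570-28800819 for XBP1, both on the minus strand. Capitals mark CCAAT, 9 bases of any kind and CCACG, searched on either strand.
HSPA5: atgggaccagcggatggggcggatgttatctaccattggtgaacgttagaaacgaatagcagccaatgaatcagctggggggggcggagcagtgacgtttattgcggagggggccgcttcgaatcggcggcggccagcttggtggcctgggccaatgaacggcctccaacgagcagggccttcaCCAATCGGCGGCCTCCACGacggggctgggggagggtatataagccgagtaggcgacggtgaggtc
XBP1: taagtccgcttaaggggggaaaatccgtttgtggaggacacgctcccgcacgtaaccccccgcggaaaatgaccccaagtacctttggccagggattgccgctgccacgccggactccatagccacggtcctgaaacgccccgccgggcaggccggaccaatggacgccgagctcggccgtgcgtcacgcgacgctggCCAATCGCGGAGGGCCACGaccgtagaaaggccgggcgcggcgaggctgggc
The element was rare, in 22 of 27305 promoters (0.0806%) and in 14 of those of 11048 tested genes (0.127%). Of 20 ER chaperone genes with a promoter in the table, 6 held it (30.0%). Of 14 tested genes with the element, whatever their list, 10 were higher at 48 h, 3 lower and 1 not called. Among all tested genes 34.5% were higher and 35% lower. The 14 include the 6 ER chaperone genes, which are also part of the list count above. CALR, the chaperone calreticulin, was among the higher ones (log2 change 0.65, SE 0.07). The lower ones were ERO1LB, an ER oxidase (log2 change -1.44, SE 0.14), FICD, an enzyme that modifies BiP (-2.0, SE 0.18), and the zinc finger gene ZNF17 (-1.92, SE 0.31), named here because they hold the element and fell.

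In the ATF4 branch 12 of 30 tested genes were higher by at least 2-fold and 3 lower by as much. ATF4 stood at 347 and 344 CPM at 4 h and 1023 and 931 CPM at 48 h (log2 change 1.50, SE 0.08, adjusted p = 3.68e-08). DDIT3, the factor CHOP that promotes cell death under lasting stress, stood at 72.8 and 59.9 CPM in untreated cells, 91.3 and 80.3 CPM at 4 h, 82.2 and 88.7 CPM at 24 h, and 1418 and 1223 CPM at 48 h. Its 48 h libraries lay far above the other 6, a 15.4-fold difference from 4 h (log2 change 3.95, SE 0.11, adjusted p = 4.67e-10). ATF3, a repressor of the same family, stood at 47.0 and 45.5 CPM at 4 h and 424 and 403 CPM at 48 h (log2 change 3.16, SE 0.07). PPP1R15A, the GADD34 subunit that removes the phosphate from eIF2-alpha, stood at 146 and 141 CPM at 4 h and 979 and 813 CPM at 48 h (log2 change 2.64, SE 0.08). In all, 21 of 30 tested genes of this branch were higher and 7 lower, with a median of 0.71, and with library totals 20 and 9 (median 0.49).

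Targets of ATF4 did not all move with it. ASNS, asparagine synthetase, stood at 178 and 170 CPM at 4 h and 248 and 211 CPM at 48 h, a rise of 0.40 (SE 0.10, adjusted p = 0.0029) that left it in the range of the untreated libraries, at 229 and 195 CPM. CHAC1, a glutathione-degrading enzyme induced by ATF4 with CHOP, fell by 2.53 (SE 0.28, adjusted p = 1.01e-05) on the log2 scale. It is singled out after its value was seen. Cytosolic aminoacyl-tRNA synthetases, which charge tRNAs, were higher in 14 of 20 cases and lower in 4 (median 0.27), led by GARS (1.30, SE 0.07), AARS (1.14, SE 0.06) and YARS (1.04, SE 0.06). With library totals 8 were higher and 6 lower (median 0.06).

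A composite C/EBP-ATF element, bound by ATF4 with C/EBP factors, was searched as TGATGNAAN on either strand. It occurred in 3.18% of all promoters and in 1.62% of those of tested genes. Of 25 genes of the ATF4 branch with a promoter in the table, 4 held it (16.0%). The 4 windows below, from GRCh38.p14, are shown because they share the same 9 letters, in capitals, while their genes rose, did not pass the test or fell; IARS and CHAC1 were picked after their values were seen. They lie at chr16:56931950-56931988 (plus strand) for HERPUD1, chr16:70289671-70289709 (minus) for AARS, chr9:92293698-92293726 (minus) for IARS, and chr15:40953246-40953284 (plus) for CHAC1.
HERPUD1: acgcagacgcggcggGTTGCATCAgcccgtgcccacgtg
AARS: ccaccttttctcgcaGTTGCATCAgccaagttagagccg
IARS: ccgcattttcagcgcGTTGCATCAcctcc
CHAC1: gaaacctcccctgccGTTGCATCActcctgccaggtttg
HERPUD1 and AARS rose as given above, IARS, the isoleucine enzyme, had a log2 change of -0.03 (SE 0.06, adjusted p = 0.66), and CHAC1 fell. The 9 letters occurred on either strand in 53 of 27305 promoters (0.194%) and in 0.118% of those of tested genes. Of 13 tested genes that held them 6 were higher at 48 h, 2 lower and 5 not called, beside 34.5% higher and 35% lower among all tested genes.

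Genes of amino acid supply divided by step. Enzymes of serine, one-carbon and asparagine synthesis were higher in 10 of 15 cases and lower in 3 (median 0.57). MTHFD2, the mitochondrial folate enzyme, rose from 178 and 166 CPM to 389 and 351 CPM (log2 change 1.10, SE 0.09) and ALDH18A1, which starts proline synthesis, by 0.72 (SE 0.06). Amino acid transporters were lower in 10 of 16 cases and higher in 3 (median -0.68). The exceptions included SLC3A2, the heavy chain shared by several light chain carriers, at 493 and 491 CPM at 4 h and 1727 and 1505 CPM at 48 h (log2 change 1.72, SE 0.08), and the leucine carrier gene SLC43A1 (2.56, SE 0.20). SLC1A3, a glutamate transporter of glia, fell by 2.31 (SE 0.12) on the log2 scale.

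Proteasome subunits were higher in 18 of 31 cases and lower in 3 (median 0.23), with none called and changed by 2-fold. PSMD7 rose by 0.67 (SE 0.06), while PSMD12 (log2 change -0.76, SE 0.07) and PSMA3 (-0.65, SE 0.06) fell. With library totals 10 were higher and 6 lower, with a median of 0.02. Autophagy genes were higher in 15 of 26 cases, 4 of them by at least 2-fold, and lower in 4 (median 0.28), and in 11 and 7 with library totals (median 0.06). ATG14, a subunit of the lipid kinase complex that starts autophagosomes, stood at 21.2 and 23.4 CPM at 4 h and 66.8 and 63.2 CPM at 48 h (log2 change 1.54, SE 0.08), and WIPI1, which binds the lipid made there, rose by 1.02 (SE 0.06). The 4 lower autophagy genes were 2 without 48 h replicate 1 or without 4 h replicate 2.

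Targets of p53 were mostly higher, in 18 of 27 cases with 2 lower (median 0.58); 5 were lower without 48 h replicate 2. GDF15, a secreted stress cytokine that ATF4 and CHOP also raise, stood at 138 and 123 CPM at 4 h, 197 and 237 CPM at 24 h, and 1076 and 895 CPM at 48 h (log2 change 2.91, SE 0.11). GADD45A, a growth arrest gene, stood at 68.1 and 58.1 CPM at 4 h and 266 and 246 CPM at 48 h (log2 change 2.02, SE 0.09), and CDKN1A, the inhibitor p21, at 239 and 253 CPM and 635 and 575 CPM (1.30, SE 0.07). These groups did not overlap in any of the 3 genes, as was so for 82.9% of all tested genes. The cyclin gene CCNG1, a p53 target, rose by 1.44 (SE 0.06).

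The BCL2 family, which sets the threshold for mitochondrial cell death, had 7 of 16 genes higher and 3 lower (median 0.19), and 5 higher and 6 lower with library totals (median -0.03); 5 were lower without 48 h replicate 2. Members with the same role differed in direction. BBC3 (PUMA), a death-promoting BH3-only protein, stood at 1.60 and 1.15 CPM at 4 h and 10.4 and 8.15 CPM at 48 h (log2 change 2.78, SE 0.26). BCL2L11 (BIM), of the same class, stood at 11.4 and 12.2 CPM at 4 h and 4.12 and 4.92 CPM at 48 h (log2 change -1.39, SE 0.15). BCL2L1, which encodes the protective BCL-XL, rose by 0.51 (SE 0.06).

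**Figure D3:**
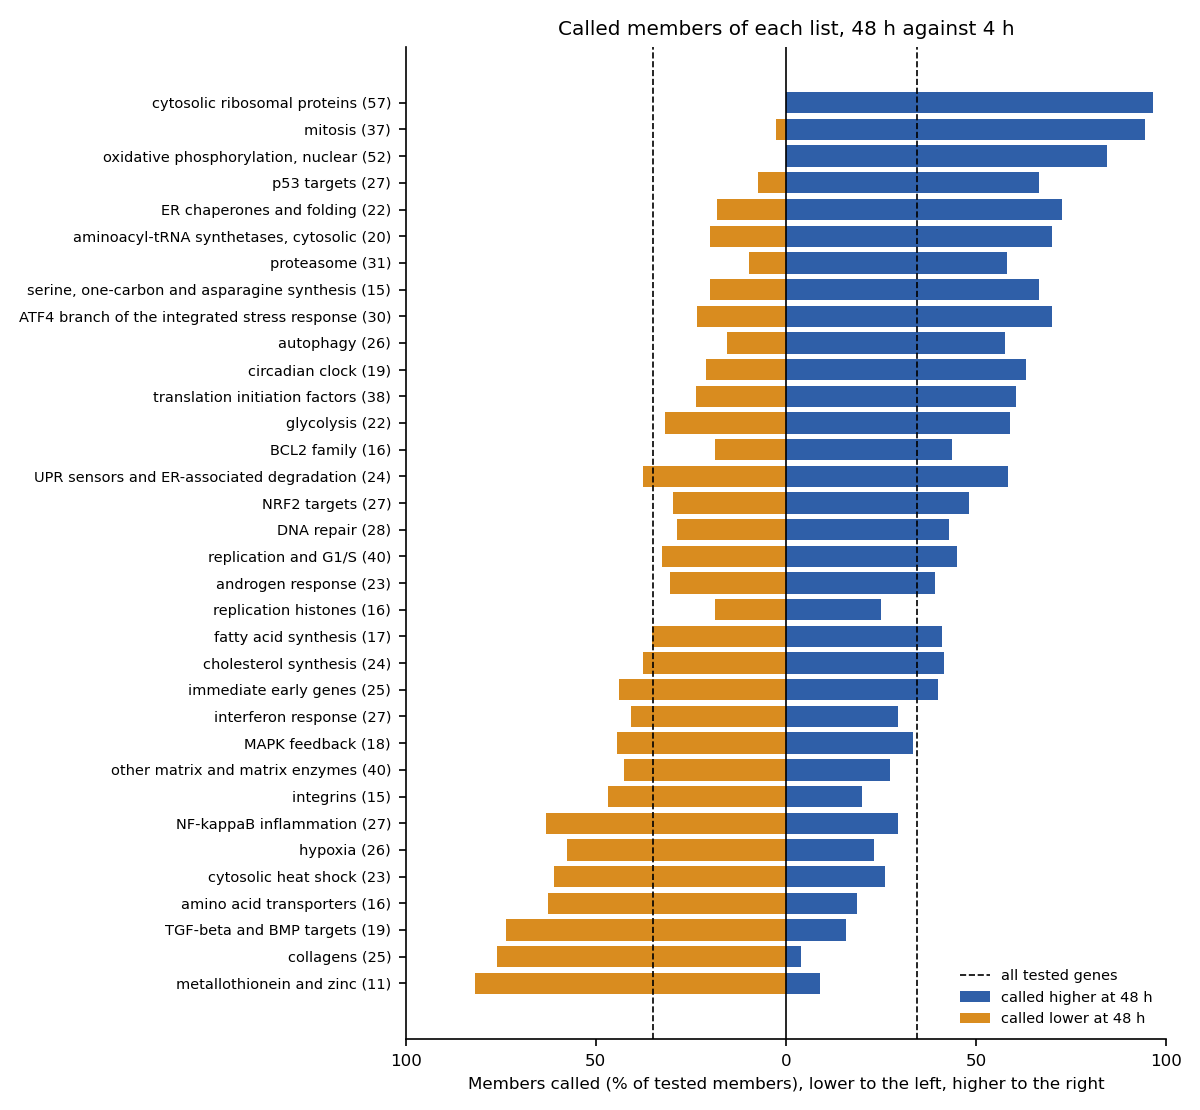
For the lists with at least 10 tested members, cell type markers left out, bars give the share of tested members (number in brackets) called higher at 48 h than at 4 h, to the right, or lower, to the left, in percent. Dashed lines mark the share of all tested genes, 34.5% higher and 35% lower; of the lists plotted, ribosomal, mitosis and oxidative phosphorylation lists had the largest excess of higher calls and metallothioneins and collagens of lower calls.

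Targets of TGF-beta and BMP signalling were lower at 48 h. Of 19 tested targets 14 were lower and 3 higher, with a median of -1.78; 1 was higher without 48 h replicate 1 or without 4 h replicate 2. PMEPA1, a TGF-beta target that restrains the pathway, stood at 32.5 and 37.6 CPM in untreated cells, 222 and 201 CPM at 4 h, 42.2 and 41.4 CPM at 24 h, and 9.12 and 9.87 CPM at 48 h. The untreated libraries lay between the early and the late ones (log2 change -4.47, SE 0.10, adjusted p = 1.13e-10). ID1, the BMP target that blocks differentiation factors, stood at 174 and 154 CPM at 4 h and 13.2 and 11.5 CPM at 48 h (log2 change -3.73, SE 0.10). SMAD6, the inhibitory SMAD of the BMP pathway, was 76.9-fold lower at 48 h (log2 change -6.26, SE 0.23).

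Immediate early genes respond to growth signals without new protein synthesis. Of 25 tested, 10 were higher and 11 lower (median -0.20), beside 34.5% higher and 35% lower among all tested genes. MYC stood at 105 and 97.1 CPM at 4 h and 466 and 464 CPM at 48 h (log2 change 2.20, SE 0.07). IER2 stood at 61.8 and 57.6 CPM at 4 h and 8.20 and 9.32 CPM at 48 h (log2 change -2.77, SE 0.09). FOS, of the AP-1 factor, fell by 2.55 (SE 0.31) from low levels, while the growth-induced factor EGR1 rose by 0.68 (SE 0.12). Feedback inhibitors of MAP kinases were higher in 6 of 18 cases and lower in 8 (median -0.18). With library totals 3 were higher and 10 lower (median -0.39), and with length and GC content corrected 8 were higher and 7 lower (median -0.04). DUSP10, a phosphatase of the stress kinases p38 and JNK, rose by 1.65 (SE 0.07), while SPRY4 and SPRED2, which restrain the ERK pathway, fell (log2 changes -3.11, SE 0.15, and -1.67, SE 0.08).

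Inflammatory targets of NF-kappaB were lower in 17 of 27 cases and higher in 8 (median -0.47). LIF, a cytokine of the IL-6 family, stood at 1782 and 1774 CPM at 4 h and 134 and 122 CPM at 48 h, with untreated libraries at 499 and 443 CPM (log2 change -3.80, SE 0.08). IL1B, the cytokine interleukin 1-beta, stood at 4357 and 4740 CPM at 4 h and 719 and 515 CPM at 48 h (log2 change -2.88, SE 0.14). CCL2, a chemokine for monocytes, fell by 3.69 (SE 0.16) on the log2 scale, to below the untreated level. Interferon response genes were higher in 8 of 27 cases and lower in 11 (median 0.02); 5 were higher without 4 h replicate 2, and with library totals the median was -0.20. IFI44 and IFI44L were higher at 48 h (1.35, SE 0.11, and 1.54, SE 0.14) and OASL was lower (-1.28, SE 0.10).

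Hypoxia genes were lower in 15 of 26 cases and higher in 6 (median -0.40). ANGPTL4, a secreted inhibitor of lipoprotein lipase, had the largest fall among the genes named here. It stood at 8.78 and 9.06 CPM in untreated cells, 122 and 117 CPM at 4 h, 10.5 and 12.1 CPM at 24 h, and 0.306 and 0.481 CPM at 48 h. The 48 h libraries were below the untreated ones as well (log2 change -8.23, SE 0.15, adjusted p = 7.74e-11). VEGFA, the vascular growth factor, stood at 1614 and 1563 CPM at 4 h and 232 and 245 CPM at 48 h, with untreated libraries at 550 and 504 CPM (log2 change -2.74, SE 0.07). PFKFB4, a regulator of glycolytic flux, fell by 2.62 (SE 0.08) on the log2 scale.

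In glycolysis 13 of 22 genes were higher and 7 lower (median 0.37). The lower ones included the regulator PFKFB3, from 222 and 220 CPM to 23.4 and 35.4 CPM (log2 change -2.91, SE 0.14), and the lactate carriers SLC16A3 (-2.67, SE 0.07) and SLC16A1 (-1.24, SE 0.06). Cholesterol synthesis was balanced, at 10 of 24 higher and 9 lower, with FDFT1 (squalene synthase) up by 1.06 (SE 0.07), MVK (mevalonate kinase) up by 0.89 (SE 0.11) and LSS (lanosterol synthase) lower by 0.81 (log2 change -0.81, SE 0.07). Fatty acid synthesis had 7 of 17 higher and 6 lower. With library totals the counts were 6 and 11 for cholesterol (median -0.09) and 3 and 9 for fatty acids (median -0.22). FADS3 (-1.24, SE 0.09), ELOVL6 (-1.15, SE 0.09) and ACSL1 (-0.77, SE 0.06), a desaturase-like, an elongating and an acyl-CoA enzyme, were lower.

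Genes of the cell's basic machinery rose together by small amounts. All but 2 of 57 cytosolic ribosomal protein genes were called higher and none lower (median 0.54). RPSA stood at 351 and 337 CPM at 4 h and 712 and 618 CPM at 48 h (log2 change 0.95, SE 0.07). Nuclear genes of oxidative phosphorylation, the ATP-making chain of mitochondria, were higher in 44 of 52 cases and lower in none (median 0.45), among them UQCRFS1 (0.71, SE 0.07), SDHD (0.70, SE 0.08) and SDHB (0.65, SE 0.07). Both lists are of short transcripts, with a median length of 1872 and 1676.5 bases, and the shortest of 5 equal groups of all genes by length had a median change of 0.26 and the longest -0.17. The highest of 5 equal groups by mean level had a median change of 0.34, and the part of level in these rises was not tested. With length and GC content corrected 56 ribosomal genes were higher and the median was 0.58, and 46 oxidative phosphorylation genes with a median of 0.57. Library totals gave 49 (median 0.32) and 29 higher with 2 lower (median 0.23). Ribosomal protein genes have many processed copies, which may take some of their reads.

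Translation initiation factors were higher in 23 of 38 cases and lower in 9 (median 0.45). EIF1, which checks the start codon, stood at 502 and 519 CPM at 4 h and 1467 and 1392 CPM at 48 h (log2 change 1.49, SE 0.06). EIF5, its partner in start codon choice, stood at 492 and 481 CPM at 4 h and 156 and 167 CPM at 48 h (log2 change -1.59, SE 0.06). The pair thus moved in opposite directions. EIF4EBP2, a repressor of cap binding, fell by 2.72 (SE 0.12) on the log2 scale.

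Genes of mitosis were higher at 48 h in 35 of 37 cases, with 1 lower (median 1.54), and 30 of them rose by at least 2-fold. PLK1, the kinase that drives mitotic entry, stood at 64.2 and 71.0 CPM in untreated cells, 30.4 and 31.7 CPM at 4 h, 120 and 110 CPM at 24 h, and 213 and 211 CPM at 48 h (log2 change 2.77, SE 0.08, adjusted p = 4.32e-10). TOP2A, which untangles chromosomes, stood at 97.8 and 102 CPM at 4 h, 519 and 511 CPM at 24 h, and 445 and 462 CPM at 48 h (log2 change 2.19, SE 0.07). MKI67, the proliferation marker Ki-67, rose by 1.87 (SE 0.12) and TPX2, a spindle factor, by 2.37 (SE 0.07). The untreated libraries of these genes lay between the early and the late ones. More cells in mitosis and more RNA of these genes per cell cannot be told apart in bulk RNA.

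Genes for DNA replication and entry into S phase did not share this direction. Of 40 tested genes 18 were higher and 13 lower (median 0.06), and with library totals 18 and 19 (median -0.15). MCM2, a subunit of the replicative helicase, stood at 93.5 and 97.3 CPM at 4 h and 104 and 97.7 CPM at 48 h (log2 change 0.08, SE 0.06, adjusted p = 0.28). Its partner MCM6 fell from 93.6 and 95.4 CPM to 40.9 and 40.1 CPM (log2 change -1.22, SE 0.07), as did FEN1, the nuclease that trims Okazaki fragments (-1.61, SE 0.09), and CCNE2, a cyclin of S phase entry (-3.07, SE 0.17). For MCM6, FEN1 and CCNE2 the 48 h libraries were also below the untreated ones. DNA repair genes were higher in 12 of 28 cases and lower in 8 (median 0.06, and -0.16 with library totals). Among all tested genes 34.5% were higher and 35% lower. The Fanconi anaemia genes FANCG (1.60, SE 0.09), FANCD2 (1.31, SE 0.12) and FANCI (0.82, SE 0.08) were among the rises in DNA repair.

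**Figure D4:**
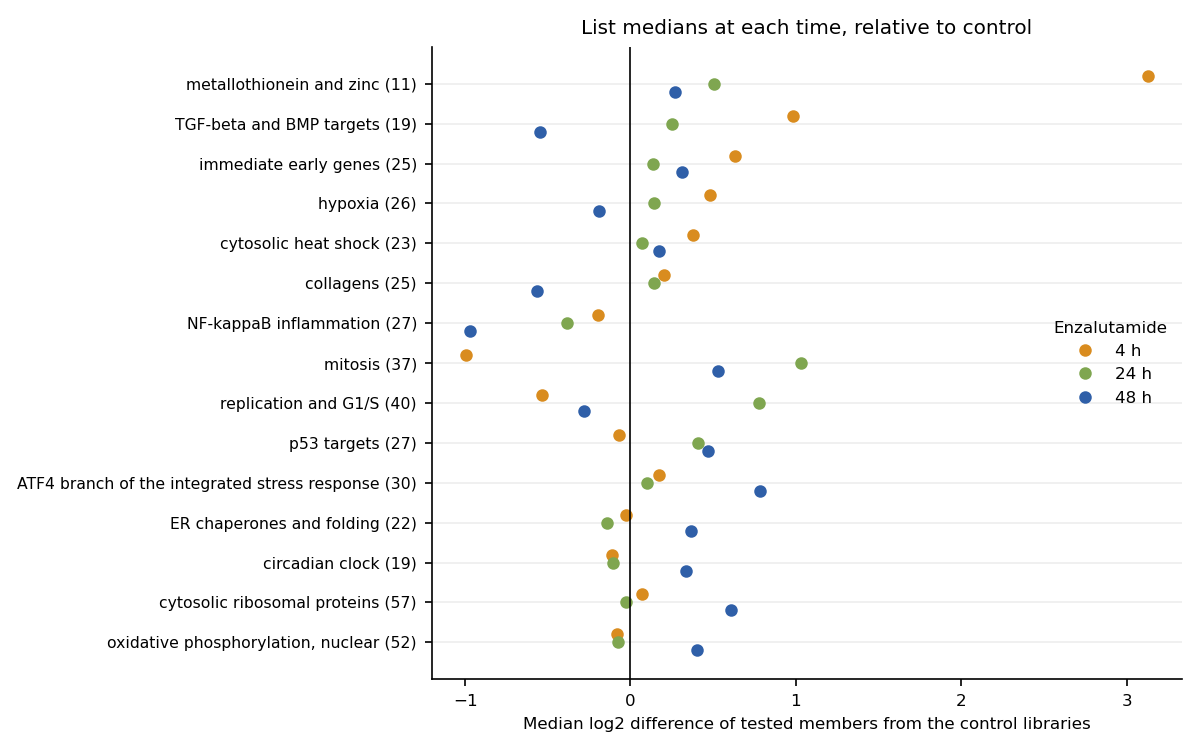
Points give, for each list, the median log2 difference of its tested members from the untreated libraries at 4 h (orange), 24 h (green) and 48 h (blue); the number of genes is in brackets and the points of a list are set slightly apart. The 3 times share the same untreated libraries. Metallothioneins had their highest median at 4 h (3.13), mitosis its highest at 24 h (1.03), and the ATF4 branch its highest at 48 h (0.79).

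Collagen genes were lower in 19 of 25 cases and higher in 1 (median -1.21). COL1A1, a chain of type I collagen, stood at 148 and 151 CPM in untreated cells, 99.4 and 105 CPM at 4 h, 140 and 145 CPM at 24 h, and 7.76 and 11.2 CPM at 48 h (log2 change -3.43, SE 0.12, adjusted p = 2.33e-09). The 48 h libraries were the lowest of all. COL1A2, its partner chain, stood at 383 and 402 CPM at 4 h and 35.9 and 50.2 CPM at 48 h (log2 change -3.19, SE 0.12), and COL5A1 fell by 2.16 (SE 0.07) on the log2 scale. Collagen transcripts are long, with a median of 6494 bases, and with length and GC content corrected 18 were lower and 2 higher (median -0.85).

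Other matrix genes were higher in 11 of 40 cases and lower in 17 (median -0.14, and 0.06 with length and GC content corrected). Among all tested genes 34.5% were higher and 35% lower. THBS1, the matrix protein thrombospondin 1, stood at 152 and 142 CPM at 4 h and 10.1 and 11.4 CPM at 48 h (log2 change -3.77, SE 0.10). MMP14, a membrane protease that cuts collagen, rose from 699 and 696 CPM to 1929 and 1718 CPM (log2 change 1.39, SE 0.07). Integrins, the receptors for matrix, were lower in 7 of 15 cases and higher in 3 (median -0.18, and 0.09 with length and GC content corrected), with ITGB8 (-2.36, SE 0.26) and the fibronectin receptor chain ITGA5 (-1.04, SE 0.06) lower and ITGA3 higher (0.61, SE 0.05).

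Androgen-responsive genes were higher in 9 of 23 cases and lower in 7 (median 0.06), and with library totals 4 were higher and 10 lower (median -0.15). The protease gene ADAMTS1 rose by 2.07 (SE 0.08) on the log2 scale. Of 5 tested steroid receptors NR3C2, the mineralocorticoid receptor, was the 1 called higher (1.85, SE 0.18).

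Circadian clock genes were higher in 12 of 19 cases and lower in 4 (median 0.55). PER1, a repressor of the clock that is also induced by stress signals, stood at 23.0 and 25.8 CPM untreated, 15.4 and 16.2 CPM at 4 h, 21.4 and 18.2 CPM at 24 h, and 155 and 163 CPM at 48 h (log2 change 3.33, SE 0.10). NR1D1, the nuclear receptor REV-ERB-alpha, stood at 40.3 and 40.9 CPM at 4 h and 386 and 340 CPM at 48 h (log2 change 3.16, SE 0.08). NFIL3, a repressor that opposes the clock's output factors, rose by 2.11 (SE 0.07). The time of day of each harvest is not in the labels, so clock phase and time with the drug cannot be told apart.

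The largest single rise was that of GADD45G, a growth arrest gene, which had 3 and 1 counts at 4 h and 391 and 203 counts at 48 h. The ratio of its levels was 150 with a 95% counting interval of 58.2 to 552, which covers counting error only. NGFR, the neurotrophin receptor p75, stood at 0.400 and 0.559 CPM at 4 h and 14.1 and 13.3 CPM at 48 h (log2 change 4.79, SE 0.21). HES1, a repressor downstream of Notch, rose by 3.44 (SE 0.17), the orphan receptor gene GPRC5B by 3.43 (SE 0.18) and the transcription factor gene RFX3, known for cilia genes, by 3.32 (SE 0.15). HEATR8-TTC4, a read-through of neighbouring genes that shares sequence with TTC4, was higher by 3.27 (SE 0.17), and its reads may belong to its neighbour.

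Of the 8 largest falls among genes at log2 CPM 2 or more on average, 6 are given here. PPP1R10, a nuclear subunit of protein phosphatase 1, stood at 67.0 and 68.5 CPM untreated, 93.7 and 104 CPM at 4 h, 50.0 and 47.8 CPM at 24 h, and 0.646 and 0.584 CPM at 48 h (log2 change -7.32, SE 0.13). DGCR8, which guides cleavage of miRNA precursors, stood at 34.2 and 35.9 CPM at 4 h and 0.749 and 0.791 CPM at 48 h (log2 change -5.50, SE 0.14). PRMT6, an arginine methyltransferase (log2 change -5.14, SE 0.17), and FAM212B (-5.83, SE 0.13) fell too. The miRNA host genes MIR22HG and MIR210HG fell (log2 changes -5.96, SE 0.15, and -6.71, SE 0.27), the latter to 3 counts in each 48 h library, a ratio of 108 with a 95% counting interval of 49.5 to 296.

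For many genes the untreated level lay between the early and the late one. Among the 1024 genes higher by at least 2-fold, both untreated libraries lay strictly between the 4 h and 48 h libraries in 58% and below both groups in 14.6%. Among the 2578 genes lower by at least 2-fold, the untreated libraries lay between in 49.5% and above both groups in 17.8%. Over all called genes the untreated libraries lay between in 40.2% of the higher and 41.1% of the lower. Genes chosen for the widest such crossing were, among the rises, the mitotic kinase genes PLK1 and TTK, the scaffold gene IQGAP3 and TWIST1, a factor of mesenchymal cells. TWIST1 stood at 14.5 and 15.1 CPM untreated, 6.24 and 5.09 CPM at 4 h, and 32.6 and 33.9 CPM at 48 h. Among the falls they were ANGPTL4, the cytokine gene IL11, the thrombomodulin gene THBD and the neurokinin receptor gene TACR2. IL11 stood at 76.8 and 66.3 CPM untreated, 605 and 539 CPM at 4 h, 78.3 and 62.5 CPM at 24 h, and 16.8 and 16.8 CPM at 48 h.

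**Figure D5:**
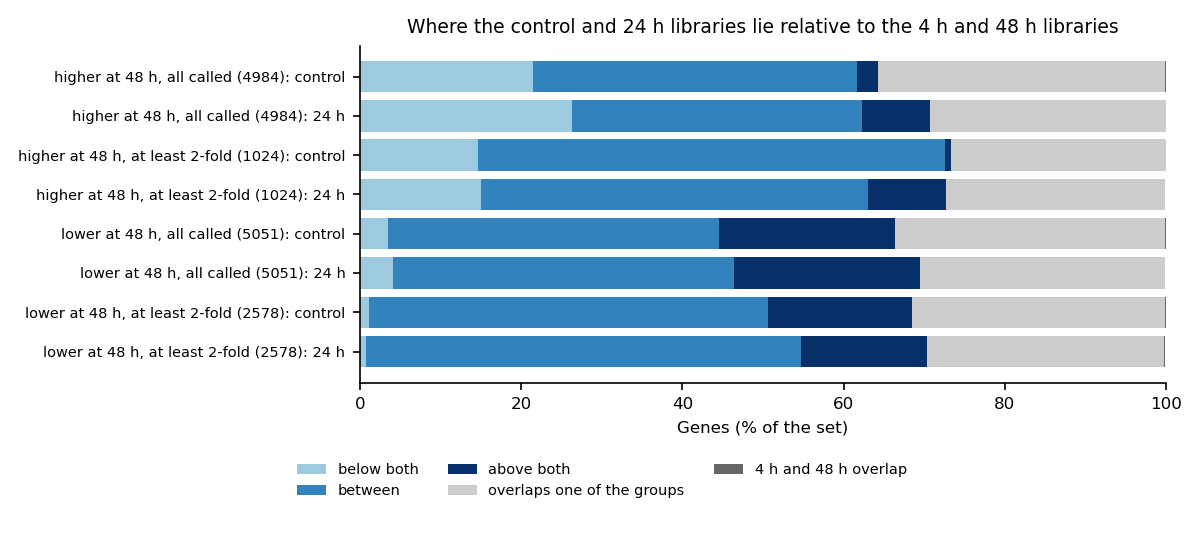
Each bar splits a set of called genes (number in brackets) by where the untreated or the 24 h libraries lay relative to the 4 h and 48 h libraries, in percent of the set. The untreated libraries lay between in 58% of genes higher by at least 2-fold and in 49.5% of genes lower by at least 2-fold; bars marked as overlapping had a library within the range of 1 of the groups.

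The libraries were checked against markers of the cell line and of other cells. CDKN2A, CDKN2B and MTAP, which are known to be deleted in U87MG cells, had at most 1 count in any library. Of 16 genes listed for glia and for the cell line 8 passed the filter on low counts, 3 higher at 48 h and 4 lower, 3 of the latter by at least 2-fold. VIM, the mesenchymal filament vimentin, stood at 5748 and 5609 CPM at 4 h and 13638 and 12517 CPM at 48 h (log2 change 1.20, SE 0.05). The glial genes GFAP, S100B, AQP4 and OLIG1 had between 0 and 22 counts. Of 12 immune markers 2 passed the filter on low counts, and both, CD68 and CSF1R, were higher at 48 h (0.76, SE 0.07, and 0.41, SE 0.06), while CD3D, CD3E, MS4A1 and AIF1 had 0 counts in all libraries. The summed immune marker level lay between 817 and 851 CPM at 4 h and between 1253 and 1386 CPM at 48 h. Of 9 endothelial markers 5 passed the filter and 2 were lower, with a summed level of 18.8 to 19.5 CPM at 4 h and 7.39 to 7.52 CPM at 48 h. The red cell genes HBB, HBA1, HBA2, HBD and AHSP and the prostate gene KLK3 had 0 counts in all libraries. The part of other cells in the results was not tested.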

How the data were processed

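RNA-seq counts of 8 U87MG libraries were used. Per the submitters' processing notes, Bowtie was used, with hg19 and GRCh37 as the named builds. None of the counting program, annotation, strand setting and Bowtie version is named in the sources used here. Each file deposited by the authors holds raw whole-number counts for 23368 gene symbols. Spreadsheet dates replaced 28 names (0.191 to 0.224% of counts); they stayed in the totals and are not named. Reads of overlapping, antisense or near-identical genes may be misassigned.

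Counts were filtered with filterByExpr, scaled by TMM (0.870 to 1.08) and tested with edgeR 4.0.16 in R 4.3.3. All 8 libraries entered 1 quasi-likelihood fit, which left 4 residual degrees of freedom, with the contrast of 48 h minus 4 h and a Benjamini-Hochberg adjusted p under 0.05 over 14448 genes. The common dispersion was 0.00512. Replicates correlated at r = 0.994 (4 h) and 0.992 (48 h) across genes. SE is the size of the log2 change over the root of the F statistic. On simulated data with 14287 genes for this comparison, 92% of 2-fold and 66% of 1.5-fold changes were recovered and 11 unchanged genes were called. The simulation changed a small part of the genes and none with low expected counts, while 69.5% were called here. Its rates may therefore differ from those of this contrast.

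The comparison, the 43 gene lists and the rule for naming genes were chosen with earlier results of these data known, so no list count is independent evidence. Named were the 8 largest rises and falls without overlap and at log2 CPM 2 or more on average, the 3 members of smallest p among those called in each list, 22 stress and signalling genes, 4 genes per direction whose untreated level lay between with the widest distance, and the genes said to be chosen later; some of these genes are not reported here. Alternatives were DESeq2 1.42.0, limma-voom (limma 3.58.1), other scalings, filters, fewer libraries, thinning to 24620833 counts, and length and GC content from GENCODE (matched for 12765 genes, 88.4%). Promoters came from RefSeq, GRCh38.p14, matched by symbol for 11048 tested genes; counts were made on another build, so no coordinates of the counted genes are given.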

Additional observations from a re-analysis of the deposited data

How the results depend on the processing

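The 4984 higher and 5051 lower calls of 48 h against 4 h kept within 1.5 times under all other tests, scalings, filters and sets of libraries that were tried, which gave 3486 to 6259 higher and 4199 to 6323 lower. DESeq2 gave 4936 and 4629, and limma-voom 4954 and 5039. Requiring a log2 change of at least 1 left 1024 higher and 2578 lower genes, and 113 higher and 131 lower list members. Leaving out each library in turn gave 4368 to 5139 higher and 4401 to 5059 lower; a group left with 1 library was assumed to vary like the others. The labels give the groups the same replicate numbers but do not say that these mark a shared batch, and same-numbered 4 h and 48 h libraries did not deviate together (r = -0.002 across genes). With the replicate number as a block 5087 genes were higher and 5135 lower, and 9995 of the 10035 calls were kept. MT2A changed direction with library totals (-0.20), with length and GC content corrected (-0.19), and with that correction and the block (-0.19); the cause was not tested. Of 141 named genes 26 were no longer called at a log2 change of at least 1, while all 141 kept direction and call under DESeq2, limma-voom, DESeq2 size factors, no filter, the block and thinning. Depth limits low genes, and with 2 libraries a group small changes may be missed.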

Other observations

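Genes with the largest falls had few exons. Among tested genes at a mean level of log2 CPM 2 or more, the 376 that were lower by at least 4-fold had a median of 5 exons and a median transcript length of 3925.5 bases, in the GENCODE annotation of GRCh38 matched by symbol. The 102 that were higher by at least 4-fold had a median of 9 exons and 3230.5 bases, and all 10906 genes at that level had 10 exons and 3813 bases. No test was made of this difference. The medians rest on the genes found in the annotation, 336 of the 376, 92 of the 102 and 9921 of the 10906.

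Replication histone genes, whose transcripts lack poly(A) tails, were counted at low levels, with 16 of 28 passing the filter on low counts, 4 higher and 3 lower at 48 h. Without 48 h replicate 1, 1 was higher, and without 4 h replicate 1, 2 were. Without 48 h replicate 2, 5 were lower. Genes associated with glioma stem cells were higher in 3 of 12 cases and lower in 3. EZH2, a histone methyltransferase, rose by 1.15 (SE 0.09) and FUT4, which makes the CD15 sugar, fell by 2.56 (SE 0.23) on the log2 scale. Neuron markers were higher in 3 of 7 tested cases and lower in 4, with a summed level of 49.9 to 57.7 CPM at 4 h and 48.3 to 48.9 CPM at 48 h. TXNIP, a glucose-induced inhibitor of thioredoxin, stood at 19.8 and 25.9 CPM at 4 h and 17.6 and 20.1 CPM at 48 h, which overlapped, while its untreated libraries were at 4.36 and 5.72 CPM (log2 change -0.28, SE 0.15, adjusted p = 0.11).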
